A study of Mus musculus with 17 samples.

Results

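The genes described are those of the MHC class II antigen presentation pathway and the ubiquitin ligase gene March1, 10 genes of the 55401 identifiers in a count table of mouse bone marrow-derived macrophages. They were chosen by name: Ciita, H2-Aa, H2-Ab1, H2-Eb1, Cd74, H2-DMa, H2-DMb1, H2-DMb2, Ctss and March1 (now named Marchf1). All 10 matched 1 Ensembl identifier each. RNA of 17 libraries in 6 groups was measured, after macrophages had been given medium conditioned by B16F10 cells, a mouse melanoma line, with or without added salt. The question posed by the design is how extracellular potassium, and the potassium channel gene Kcnj2, bear on macrophages in such medium. C57BL/6J macrophages received conditioned medium with KCl (3 libraries), conditioned medium with NaCl (2 libraries) or conditioned medium alone (3 libraries), and a C57BL/6J control group (3 libraries) has no stated treatment. Treatment of C57BL/6J cells with conditioned medium lasted 6 hours, and the final concentration of each salt was 40 mM. No time is given for the control group. The other groups received conditioned medium with KCl that the labels call isotonic. One was Lyz2-Cre-Kcnj2f/f, called the Kcnj2 knockout here (3 libraries), and the other Kcnj2f/f, called floxed (3 libraries). What was left out of the isotonic medium to balance the added KCl is not stated in the labels. The time of treatment and the KCl concentration are not given for these groups either. Lyz2-Cre deletes floxed genes in myeloid cells and is inserted at Lyz2 itself. The labels do not say whether libraries of a group came from separate animals or cultures, so p-values measure the spread between these libraries, which may be technical.

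MHC class II molecules are pairs of an alpha and a beta chain that show peptides from endosomes to CD4+ T cells. In C57BL/6J mice the surface molecule is I-A, made of H2-Aa and H2-Ab1. H2-Eb1 encodes the beta chain of I-E, whose alpha chain is not made in this strain. Cd74 encodes the invariant chain, which fills the groove during transport. Cathepsin S, made from Ctss, trims the invariant chain to a short peptide, and H2-DM, a dimer of the products of H2-DMa and of H2-DMb1 or H2-DMb2, exchanges that peptide for others. CIITA, the product of Ciita, is the coactivator that class II promoters need and does not bind DNA itself. It docks on the factors RFX, CREB and NF-Y, which sit on the X and Y boxes of these promoters. MARCH1 works at the other end: it puts ubiquitin on the beta chain and on CD86, which sends them to degradation, and interleukin-10 is known to raise it in human monocytes.

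The promoter stretches through which CIITA acts are shown for members that hold their boxes, since the results set the RNA of these genes beside that of Ciita. RefSeq promoters (GRCm38.p6) run from 250 bases before a gene's start to 50 bases from it on. The promoter table held 10 of them for 7 of the 10 genes and none for Ciita, H2-Ab1 or Cd74. Capitals mark the Y box, TGATTGG, and a core of the X box, AACNGATG, where N is any base. The stretches run from 140 to 21 bases before the start, 5′ to 3′ on the gene's strand, at chr17:34287844-34287963 on the minus strand for H2-Aa and on the plus strand at chr17:34305727-34305846 for H2-Eb1, chr17:34153051-34153170 for H2-DMb1 and chr17:34145109-34145228 for H2-DMb2.
H2-Aa: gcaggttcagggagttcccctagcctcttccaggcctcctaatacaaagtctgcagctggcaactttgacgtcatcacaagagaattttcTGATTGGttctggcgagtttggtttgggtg
H2-Eb1: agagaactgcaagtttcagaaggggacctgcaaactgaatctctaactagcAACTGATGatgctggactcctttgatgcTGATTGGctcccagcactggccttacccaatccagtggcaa
H2-DMb1: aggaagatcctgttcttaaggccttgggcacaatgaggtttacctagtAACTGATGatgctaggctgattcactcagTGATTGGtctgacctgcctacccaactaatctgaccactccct
H2-DMb2: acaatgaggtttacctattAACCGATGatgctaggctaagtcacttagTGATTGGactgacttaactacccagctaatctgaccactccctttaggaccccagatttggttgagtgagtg
The Y box was in all 4 of these stretches and the X box core in H2-Eb1, H2-DMb1 and H2-DMb2, with 20 bases between them in H2-Eb1 and 21 in both H2-DMb genes. On either strand, 7.82% of all 32851 promoters in the table held the Y box, 2.32% the X box core and 0.186% both. The boxes do not overlap each other. Among the other members, the promoter of Ctss held the X box core without the Y box, and neither was in the 2 promoters listed for H2-DMa or the 3 listed for March1. Such matches describe these letters only.

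Library totals were 13503869 to 19391623 counts. Levels are given as CPM, counts relative to the library total, scaled by TMM factors over all 17 libraries, and fold changes are log2 values of edgeR's quasi-likelihood test with their standard error (SE). P-values were adjusted by Benjamini-Hochberg across every gene tested, and a gene was called at an adjusted p under 0.05. Replicates with KCl and the floxed and knockout replicates stood further apart than others: chi-square per degree of freedom was 28.8 to 89.1 between KCl libraries, 5.59 to 34.0 between knockout libraries, 25.3 to 133 between floxed libraries and 2.05 to 5.47 between libraries of the other groups. KCl library 2 and floxed library 2 had the lowest length slope of their groups, −0.11 and −0.21. That slope is the change of a gene's log2 level, relative to its mean over libraries, per doubling of transcript length. Kcnj2 had 19.7, 24.4 and 29.4 CPM in knockout libraries, against 173, 139 and 147 CPM in floxed libraries. Bulk RNA cannot tell a change in the share of expressing cells from a change of RNA per cell.

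Some markers of other cells that carry class II were at or near 0, and others were not. Pax5, which marks B cells, had at most 1 count in a library, and Flt3, of dendritic cells, at most 4. Of the other B cell markers Ighm reached 872 counts and Cd22 282. Of the other dendritic cell markers Xcr1 reached 247 counts, Clec10a 133 and Zbtb46 40. The summed level of the 8 dendritic cell markers was 18.8 to 27.0 CPM with KCl, 6.43 to 8.68 CPM in knockout, 6.18 to 8.65 CPM in floxed, 9.61 to 10.6 CPM with NaCl, 4.80 to 7.38 CPM in conditioned medium and 7.49 to 9.41 CPM in control libraries. With KCl most of it was Xcr1, at 14.4 to 21.0 CPM. The 7 B cell markers summed to 26.1 to 30.3 CPM with KCl, 47.2 to 57.5 CPM in knockout, 26.6 to 35.5 CPM in floxed, 31.2 to 33.2 CPM with NaCl, 31.3 to 36.3 CPM in conditioned medium and 42.9 to 47.8 CPM in control libraries, and most of it was Ighm. The 8 neutrophil markers, of cells that carry little class II, summed to 44.0 to 52.3 CPM with KCl, 121 to 157 CPM in knockout, 118 to 174 CPM in floxed, 63.4 to 65.9 CPM with NaCl, 165 to 181 CPM in conditioned medium and 61.8 to 63.1 CPM in control libraries. In conditioned medium most of it was Csf3r, at 141 to 157 CPM, and Csf3r had 16.8 to 23.3 CPM with KCl. S100a8 had 14.4 to 17.6 CPM in conditioned medium and 12.7 to 23.9 CPM with KCl, and Ly6g at most 1 count in a library. The 9 macrophage markers summed to 12580 to 13710 CPM in knockout libraries and 25590 to 29420 CPM in the other groups. Most of that difference was in Lyz2, with 7171 to 8376 CPM in knockout libraries, against 19810 to 24460 CPM in floxed libraries. The part of other cells in the results below was not tested.

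March1 rose in conditioned medium against control and fell with either salt against that medium, and Ciita fell in all 3 of these comparisons. Fold changes of the chain genes H2-Aa, H2-Ab1, H2-Eb1 and Cd74 there lay between −0.24 and 0.38 on the log2 scale with TMM scaling. Conditioned medium against control moved 7 of the 10 members past the threshold, beside 53.5% of all 14519 genes tested. Of the members 3 rose (27.2% of all genes) and 4 fell (26.4%). All 10 had libraries that did not overlap between the groups, as did 68.1% of all genes. KCl added to conditioned medium moved 5 members against that medium alone (53.9% of all genes), 1 up (26.6%) and 4 down (27.4%). NaCl against conditioned medium alone moved 3 members (28.7%), none up (13.7%) and 3 down (14.9%). KCl against NaCl moved 3 (31.6%), 2 up (15.4%) and 1 down (16.2%). With either salt the share of members called was near that of all genes, so the counts say little of these genes and the description rests on their values.

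**Figure D1:**
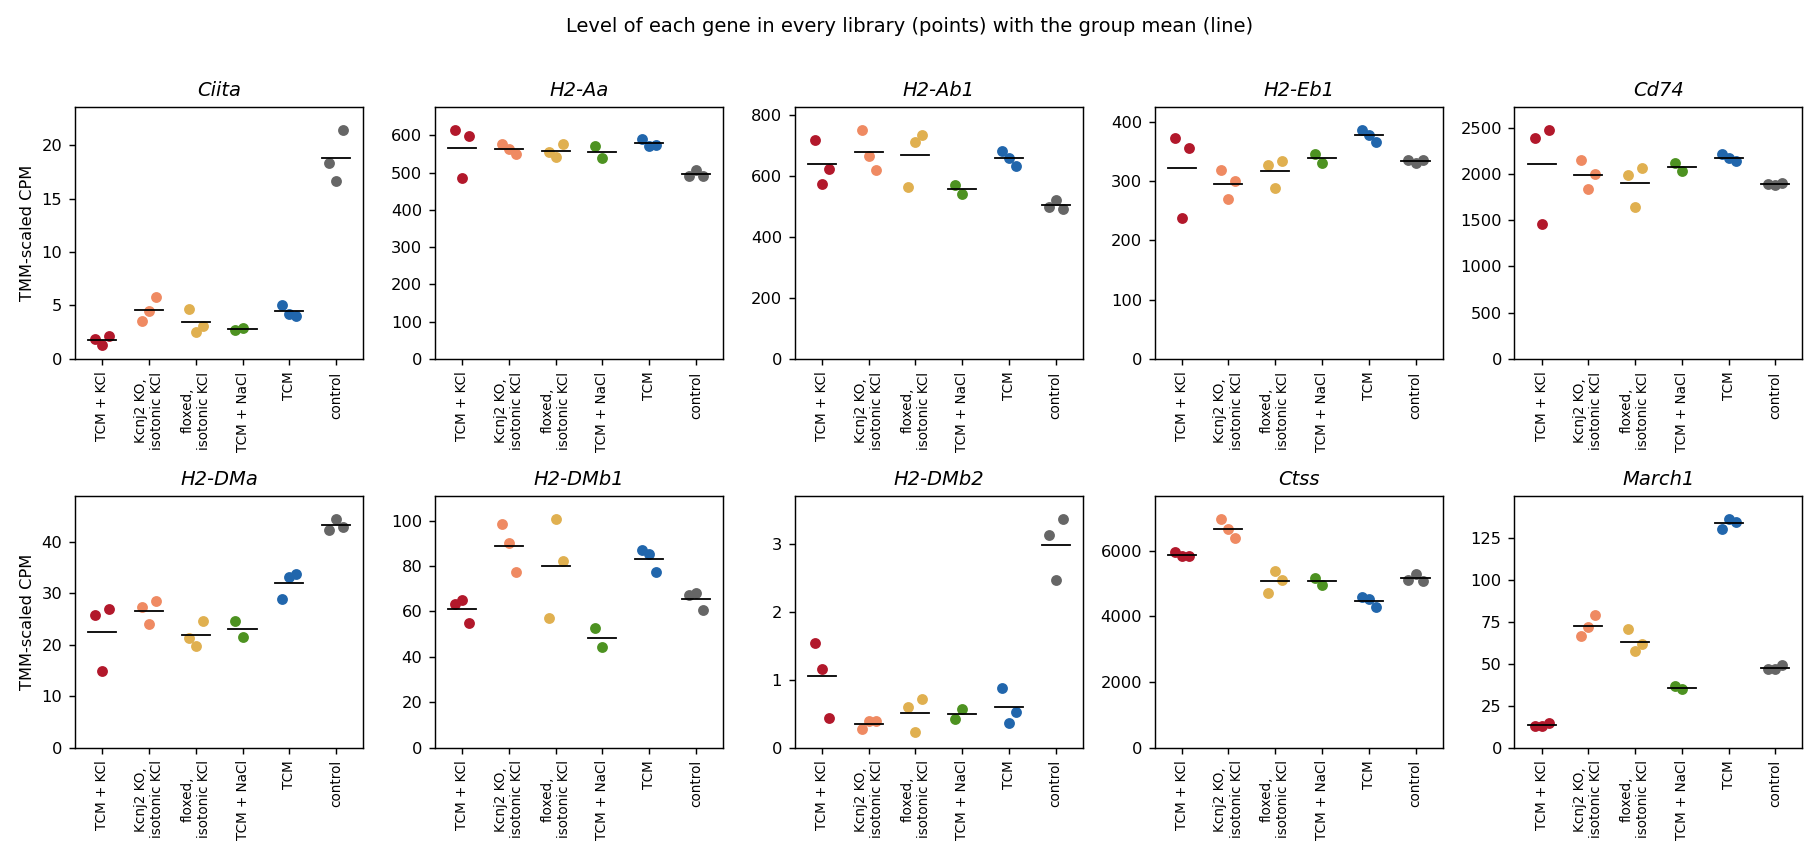
TMM-scaled CPM (y axes, from 0) of the 10 genes in each of 17 libraries, by group (x axes), where TCM is conditioned medium, KO the Kcnj2 knockout, points are libraries and lines are group means. March1 lies between 12.6 and 14.6 CPM with KCl and between 130 and 136 CPM in conditioned medium alone, and the lowest Cd74 level is 1454 CPM, in a KCl library.

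March1, which takes class II and CD86 off the surface, ran from its highest level in conditioned medium to its lowest with KCl. It had 12.6, 13.2 and 14.6 CPM with KCl, 66.5, 71.6 and 78.7 CPM in knockout, 70.3, 57.3 and 61.5 CPM in floxed, 36.5 and 35.1 CPM with NaCl, 130, 136 and 134 CPM in conditioned medium and 46.5, 46.6 and 49.1 CPM in control libraries. In order from high to low the groups were conditioned medium, knockout, floxed, control, NaCl and KCl, and of neighbours in that order only the knockout and floxed libraries overlapped. Conditioned medium against control raised it by 1.49 on the log2 scale (SE 0.07, adjusted p = 1.28e-09, edgeR). With KCl it was 9.96-fold lower than in conditioned medium alone (log2 fold change −3.32, SE 0.08, adjusted p = 2.82e-11), and 0.441% of the genes tested had a lower fold change. With NaCl it was 3.71-fold lower than in conditioned medium alone (log2 fold change −1.89, SE 0.09, adjusted p = 1.45e-08). KCl against NaCl left a further difference of −1.42 (SE 0.09, adjusted p = 4.25e-06). These calls held under each alternative and without any single library, where the KCl change against conditioned medium ran from −3.38 to −3.27. Part of the March1 exons lies opposite Gm15354, which had 0 counts in every library.

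March8, the close relative of March1 with similar targets, differed less between groups. It averaged 56.1 ± 0.837 CPM with KCl (SD, n = 3), 62.5 ± 0.0392 CPM with NaCl (n = 2), 60.7 ± 1.68 CPM in conditioned medium (n = 3) and 72.7 ± 0.397 CPM in control libraries (n = 3). It fell in conditioned medium against control (log2 fold change −0.27, adjusted p = 0.00399). Its fold changes against conditioned medium alone were −0.12 with KCl (adjusted p = 0.142) and 0.05 with NaCl (adjusted p = 0.688). Cd86, the costimulator that MARCH1 also removes, had fold changes of 0.27 with KCl (adjusted p = 0.0928) and 0.06 with NaCl (adjusted p = 0.812) against conditioned medium alone. Cd83, which opposes MARCH1 on class II and CD86, rose with KCl (0.60, adjusted p = 6.68e-05) and fell with NaCl (−0.28, adjusted p = 0.0467) against conditioned medium alone. March8 and Cd86 are named in the KCl and NaCl comparisons, and Cd83 there too, because of these roles and outside the naming rule.

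Ciita, the coactivator, was high in control cells only. It had 1.88, 1.34 and 2.13 CPM with KCl, 3.50, 4.50 and 5.78 CPM in knockout, 4.70, 2.48 and 3.09 CPM in floxed, 2.67 and 2.86 CPM with NaCl, 5.06, 4.25 and 4.02 CPM in conditioned medium and 18.4, 16.6 and 21.4 CPM in control libraries. Control libraries lay above all others, KCl libraries below all others, and the groups between them overlapped in order of level. Conditioned medium lowered it 4.26-fold against control (log2 fold change −2.09, SE 0.16, adjusted p = 8.21e-08). With KCl it fell by 1.29 on the log2 scale against conditioned medium alone (SE 0.20, adjusted p = 0.000132), and with NaCl by 0.67 (SE 0.20, adjusted p = 0.0245). The NaCl call was lost without conditioned medium library 1 (adjusted p = 0.0857), without NaCl library 1 (0.153) or 2 (0.101), and in a fit of all 17 libraries (0.0878). KCl against NaCl gave −0.62 (SE 0.23, adjusted p = 0.0574), where the libraries did not overlap, and passed with total-count scaling (−0.76, adjusted p = 0.0293), a stricter filter (0.0487) or the replicate block (0.0365). It missed the threshold in the other 6 of 9 alternatives. Over all 9 the value ran from −0.76 to −0.18, with adjusted p up to 0.881. Without any 1 library it ran from −0.76 to −0.47. Counts were low, 15 to 34 per library with KCl and 392 to 522 in control. Ciita shares 329 exon bases with Dexi on the other strand, and the strand setting of the counting is not given in the sources used here. Dexi averaged 14.7 ± 2.34 CPM with KCl, 9.80 ± 0.925 CPM in conditioned medium and 14.4 ± 1.76 CPM in control libraries (SD, n = 3 each). Its fold change in conditioned medium against control was −0.56 (adjusted p = 0.00432), of the same sign as that of Ciita. With KCl against conditioned medium alone it was 0.58 (adjusted p = 0.00391), opposite in sign to that of Ciita. The part of Dexi in the Ciita counts was not tested.

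**Figure D2:**
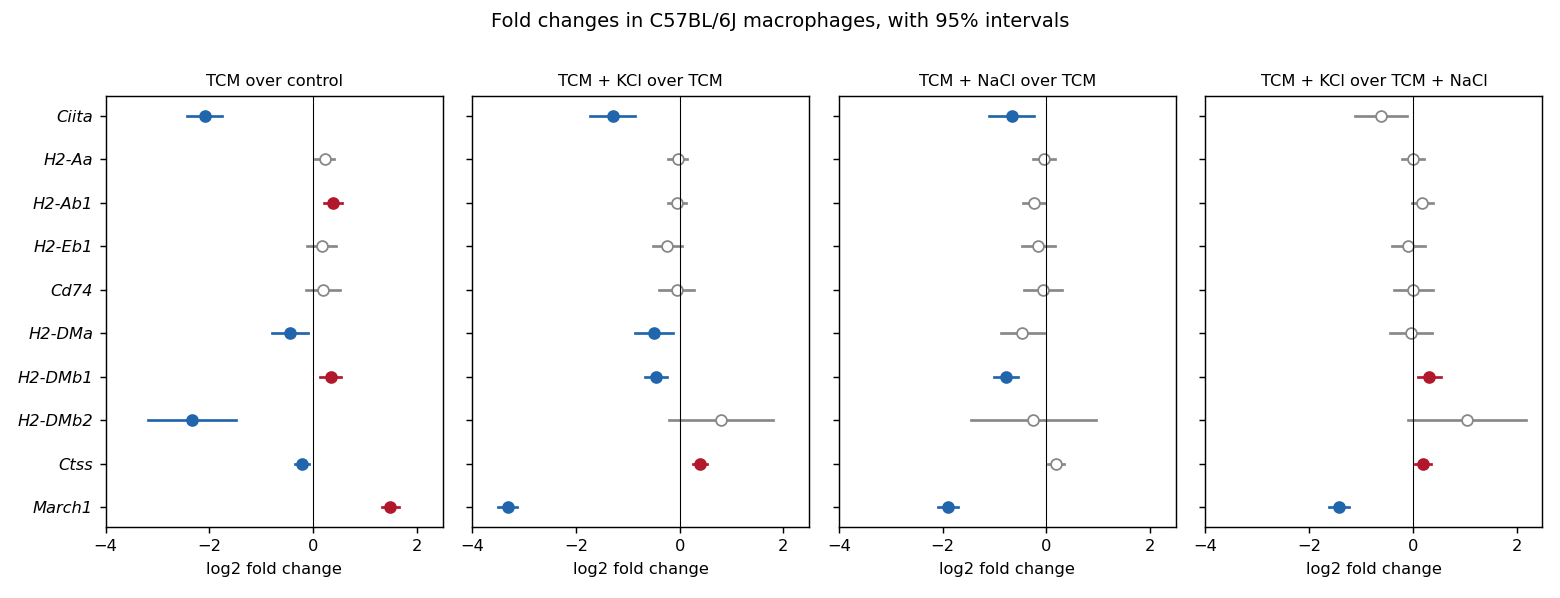
Log2 fold change (x axes) of each gene (rows) in 4 comparisons of C57BL/6J libraries, with TCM for conditioned medium, lines for 95% intervals, and filled points where adjusted p was under 0.05 (red higher, blue lower). March1 is the highest of the 10 in conditioned medium over control (1.49) and the lowest in each salt comparison, and the chains H2-Aa, H2-Ab1, H2-Eb1 and Cd74 lie near 0 with either salt.

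The genes of the I-A chains, H2-Aa and H2-Ab1, did not fall with Ciita. H2-Aa had 591, 571 and 574 CPM in conditioned medium, against 490.5, 506 and 490.9 CPM in control libraries. H2-Ab1 had 681, 659 and 632 CPM in conditioned medium, against 498, 520 and 492 CPM in control libraries. Every conditioned medium library was above every control library for both. H2-Ab1 rose by 0.38 (SE 0.08, adjusted p = 0.00186), and the fold change of H2-Aa was 0.22 (SE 0.09, adjusted p = 0.0507). That of H2-Aa passed in 6 of 9 alternatives (0.21 to 0.23, adjusted p = 0.000144 to 0.0449) and in none that left out 1 library (adjusted p = 0.101 to 0.137). These directions rest on the scaling: with total counts and no TMM factors, the median fold change of all genes was −0.37, against −0.04 with TMM, and the fold changes were 0.04 for H2-Ab1 (adjusted p = 0.726) and −0.12 for H2-Aa (adjusted p = 0.321). A change of scaling shifts all genes by nearly the same amount. It therefore cannot test where H2-Ab1 and H2-Aa stand relative to the median of all genes.

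With KCl, H2-Aa had 615, 486 and 598 CPM and H2-Ab1 had 716, 575 and 624 CPM. These overlapped with conditioned medium alone, and library 2 was the lowest for both. The fold changes were −0.04 for H2-Aa (95% interval −0.23 to 0.15, adjusted p = 0.719) and −0.05 for H2-Ab1 (−0.23 to 0.13, adjusted p = 0.627). Without KCl library 2 they were 0.07 and 0.03. With total-count scaling, where the median of all genes was −0.22, H2-Ab1 was called lower with KCl (−0.26, adjusted p = 0.0281). With NaCl, H2-Aa had 572 and 538 CPM and H2-Ab1 had 571 and 541 CPM, and their fold changes against conditioned medium alone were −0.05 (adjusted p = 0.733) and −0.23 (adjusted p = 0.0814). Both H2-Ab1 libraries with NaCl lay below all 3 in conditioned medium. H2-Ab1 was called lower with total-count scaling (−0.30, adjusted p = 0.0454), the replicate block (−0.25, 0.0391) and only the libraries compared (−0.23, 0.000834). KCl against NaCl gave 0.01 for H2-Aa (adjusted p = 0.929) and 0.18 for H2-Ab1 (adjusted p = 0.155), whose libraries did not overlap. Without KCl library 2 H2-Ab1 was called higher with KCl there (0.26, adjusted p = 0.0261).

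H2-Eb1, for the I-E beta chain, and Cd74, for the invariant chain, passed the threshold in none of these comparisons with all libraries of the fit, though some alternatives called them. H2-Eb1 had 373, 238 and 355 CPM with KCl, 347 and 331 CPM with NaCl, 387, 378 and 367 CPM in conditioned medium and 336.0, 330.2 and 336.0 CPM in control libraries. Cd74 had 2384, 1454 and 2478 CPM with KCl, 2113 and 2034 CPM with NaCl, 2214, 2177 and 2135 CPM in conditioned medium and 1896, 1876 and 1902 CPM in control libraries. In KCl library 2 both were the lowest of all 17. The fold changes of conditioned medium over control were 0.17 for H2-Eb1 (adjusted p = 0.295) and 0.19 for Cd74 (adjusted p = 0.303), with total-count scaling −0.17 and −0.14, and with only the libraries compared both were called (0.17, adjusted p = 0.00205, and 0.19, adjusted p = 0.000192). Without KCl library 2, Cd74 had a fold change of 0.16 with KCl against conditioned medium alone (adjusted p = 0.0268), and −0.06 with it (adjusted p = 0.781). H2-Eb1 had −0.24 with KCl (adjusted p = 0.141), −0.05 without KCl library 2 (adjusted p = 0.490) and −0.36 without KCl library 1 (adjusted p = 0.0455). It was called with total-count scaling (−0.44, adjusted p = 0.0231) and with no filter on low counts (−0.25, adjusted p = 0.0278). With NaCl H2-Eb1 had −0.15 and Cd74 −0.06, and H2-Eb1 was called with only the libraries compared (−0.14, adjusted p = 0.0266). KCl against NaCl gave −0.09 for H2-Eb1 (adjusted p = 0.673) and 0.01 for Cd74 (adjusted p = 0.980). Without KCl library 2 these were 0.10 (adjusted p = 0.303) and 0.22, where Cd74 was called (adjusted p = 0.0173).

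**Figure D3:**
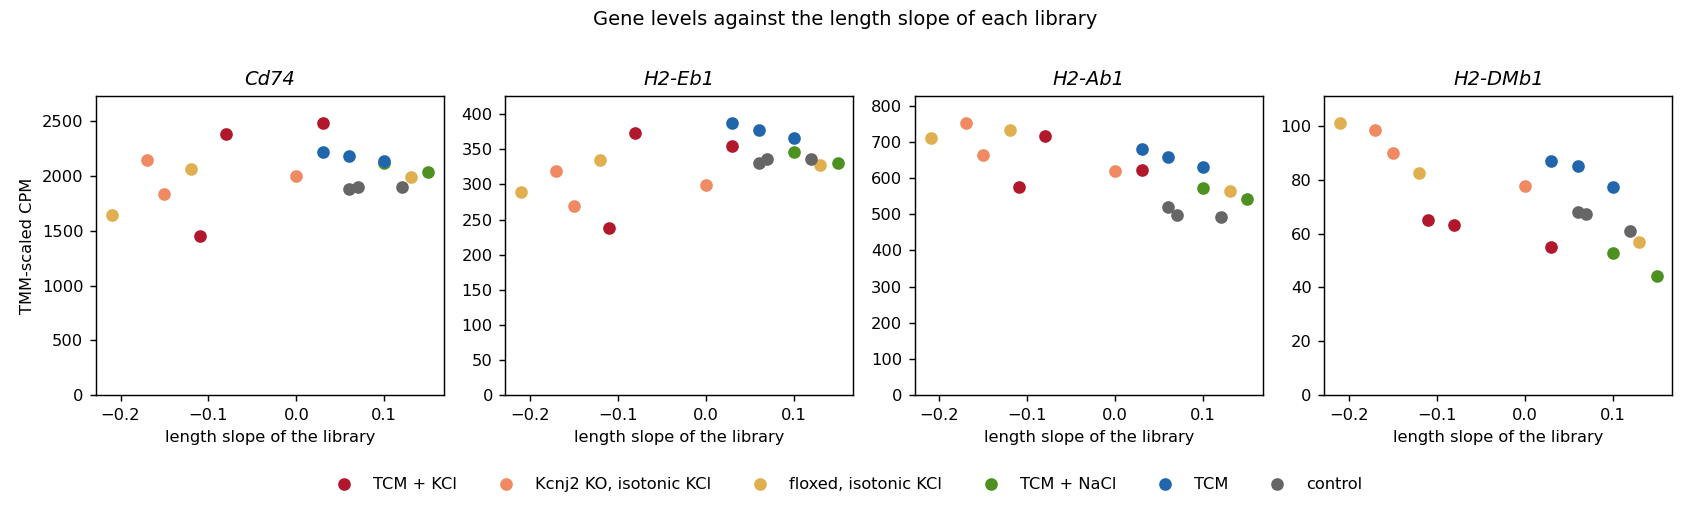
TMM-scaled CPM (y axes, from 0) of 4 genes against the length slope of each library (x axes), where points are the 17 libraries and colours are groups, with TCM for conditioned medium. KCl library 2, at a slope of −0.11, holds the lowest Cd74 (1454 CPM) and H2-Eb1 (238 CPM) levels, and floxed library 2, at −0.21, the highest H2-DMb1 level (101 CPM) and, of the floxed libraries, the lowest of Cd74 (1640 CPM).

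Levels per kb of exon set the members in order within control libraries. Ctss averaged 3798 ± 86.1 CPM per kb, Cd74 1126 ± 8.23, H2-Ab1 196 ± 5.63, H2-Eb1 172 ± 1.74, H2-Aa 131 ± 2.38, H2-DMb1 38.8 ± 2.33, H2-DMa 12.5 ± 0.346, March1 6.63 ± 0.208, Ciita 1.97 ± 0.257 and H2-DMb2 1.71 ± 0.269 CPM per kb (SD, n = 3). Apart from Ciita and H2-DMb2, neighbours in this order differed by more than these spreads. The spreads do not cover error in the length, which joins all annotated exons of a gene and need not be that of the transcripts made. Without division by length, H2-Aa averaged 496 CPM and H2-Eb1 334 CPM, so the order of these 2 rests on the lengths used, 3798 and 1944 bases. With KCl, March1 averaged 1.89 ± 0.140 and Ciita 0.187 ± 0.0423 CPM per kb (SD, n = 3). On that scale Cd74 thus stood above every chain it escorts in control cells.

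Ctss, for the protease that trims the invariant chain, moved opposite to March1 in both steps. It had 5968, 5838 and 5841 CPM with KCl, 6980.0, 6657 and 6381 CPM in knockout, 4714, 5381 and 5103 CPM in floxed, 5168 and 4956 CPM with NaCl, 4580.0, 4528 and 4286 CPM in conditioned medium and 5120.0, 5289 and 5065 CPM in control libraries. Conditioned medium libraries lay below all others, and knockout and then KCl libraries above all others. It fell by 0.22 in conditioned medium against control (SE 0.06, adjusted p = 0.00954) and rose by 0.39 with KCl against conditioned medium alone (SE 0.06, adjusted p = 0.000154). With NaCl its fold change was 0.19 (SE 0.07, adjusted p = 0.0564), which passed in 4 of 9 alternatives (0.19 to 0.21, adjusted p = 0.00126 to 0.0409). KCl against NaCl gave 0.20 (SE 0.07, adjusted p = 0.0427), a call lost without KCl library 1 (adjusted p = 0.0841) or NaCl library 1 (0.140) or 2 (0.260). It was also lost with total-count scaling (0.06, adjusted p = 0.574), no filter (0.137), the length slope in the fit (0.13, 0.519), only the libraries compared (0.241) and all 17 libraries (0.0846).

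The H2-DM genes, for the peptide exchanger, did not move as a unit. H2-DMa had 25.9, 14.9 and 27.0 CPM with KCl, 24.6 and 21.6 CPM with NaCl, 28.9, 33.2 and 33.8 CPM in conditioned medium and 42.3, 44.6 and 42.8 CPM in control libraries. It was highest in control, and the salt groups overlapped each other. H2-DMa fell by 0.44 in conditioned medium (SE 0.16, adjusted p = 0.0360), a call lost when any 1 library was left out (adjusted p = 0.0586 to 0.127). With KCl it fell by 0.50 against conditioned medium alone (SE 0.17, adjusted p = 0.0239), a call lost without conditioned medium library 2 or 3 (adjusted p = 0.0651 and 0.0720) with only the libraries compared (0.0658) and with the length slope in the fit (−0.23, adjusted p = 0.402). Without KCl library 2, the lowest, it was −0.28 and still called. With NaCl its fold change was −0.46 (adjusted p = 0.0856), called with no filter (−0.47, 0.00583), the length slope in the fit (−0.61, 0.0129) and only the libraries compared (−0.46, 0.000548). Its exons share 360 bases with Brd2 on the other strand, and 8.43% of its 50-base words occur in Brd2. Brd2 averaged 372 ± 43.3 CPM with KCl, 238 ± 5.81 CPM in conditioned medium and 234 ± 5.98 CPM in control libraries (SD, n = 3 each). Against conditioned medium alone Brd2 had 0.64 with KCl (adjusted p = 4.23e-05) and 0.54 with NaCl (adjusted p = 0.000859), opposite in sign to H2-DMa. In conditioned medium against control it had 0.02 (adjusted p = 0.889). The part of Brd2 in the H2-DMa counts was not tested.

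H2-DMb1, the main beta chain gene of H2-DM here, had 63.2, 65.2 and 55.0 CPM with KCl, 52.6 and 44.1 CPM with NaCl, 87.0, 85.1 and 77.3 CPM in conditioned medium and 67.1, 67.9 and 60.8 CPM in control libraries. Conditioned medium libraries lay above those of the other 3 groups and NaCl libraries below. It rose by 0.34 in conditioned medium against control (SE 0.09, adjusted p = 0.00716; 0.00 with total-count scaling, adjusted p = 0.976; 0.35 in a fit of all 17 libraries, adjusted p = 0.0867). Against conditioned medium alone it fell by 0.45 with KCl (SE 0.09, adjusted p = 0.00118) and by 0.77 with NaCl (SE 0.11, adjusted p = 0.000139). KCl against NaCl gave 0.32 (SE 0.11, adjusted p = 0.0369), lost without KCl library 1 (adjusted p = 0.0988) or 2 (0.0686) or NaCl library 2 (0.329). That call was also lost with total-count scaling (0.17, adjusted p = 0.193), no filter (0.0677), only the libraries compared (0.165) and all 17 libraries (0.197), and the value was −0.07 with the length slope in the fit.

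H2-DMb2 had 23, 13 and 7 counts with KCl, 8 and 10 with NaCl, 14, 6 and 9 in conditioned medium and 68, 58 and 82 in control libraries. It was thus near the detection limit outside control, and was 5.04-fold lower in conditioned medium (log2 fold change −2.33, SE 0.40, adjusted p = 0.000224). Its fold changes with KCl (0.79, SE 0.46, adjusted p = 0.168) and NaCl (−0.25, SE 0.56, adjusted p = 0.789) missed the threshold. Without KCl library 3 the value with KCl was 1.20 (adjusted p = 0.0183). Of the 50-base words of H2-DMb2, 21.2% occur in H2-DMb1, so part of these counts cannot be assigned with certainty. Among further class II chains, H2-Oa and H2-Ob, which make the inhibitor of H2-DM, rose in conditioned medium against control (1.55, adjusted p = 0.0154, and 1.85, adjusted p = 0.0196) at means of at most 0.855 CPM. H2-Oa and H2-Ob were the only ones of the 4 listed that were tested. H2-Oa had at most 15 counts in a conditioned medium library and 11 in a control library, and H2-Ob at most 22 and 8. Genes this low can pass the low-count filter through the group where they are high, so little rests on these rises.

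Genes that carry the interferon gamma signal to the Ciita promoter changed in both directions. Counts called in this list and those that follow stand beside the shares of all genes called. These were 53.5% for conditioned medium over control (27.2% up, 26.4% down) and 53.9% for KCl over conditioned medium (26.6% up, 27.4% down). They were 28.7% for NaCl over conditioned medium (13.7% up, 14.9% down) and 31.6% for KCl over NaCl (15.4% up, 16.2% down). In conditioned medium against control, 6 of 9 rose and 3 fell (median log2 fold change 0.42, against −0.04 over all genes tested), and 3 rose and 3 fell with total-count scaling. Jak2, a receptor kinase, rose by 2.13 (adjusted p = 3.88e-10), the transcription factors Irf1 by 1.45 (adjusted p = 1e-08) and Spi1 by 1.06 (adjusted p = 1.22e-07), and Irf8, which acts on myeloid promoters, fell by 0.80 (adjusted p = 1.1e-06). With KCl against conditioned medium alone 3 of 9 rose and 3 fell (median −0.11, against −0.01 over all genes), and 2 rose and 5 fell with total-count scaling (median −0.34, against −0.22). Irf8 fell by 0.74 (adjusted p = 6.13e-06), and Irf1 rose by 0.72 (adjusted p = 1.4e-05) and Usf1, a factor of the interferon-responsive Ciita promoter, by 1.19 (adjusted p = 2.2e-05). With NaCl 1 rose and 2 fell, among them Irf1 by 0.59 up (adjusted p = 0.000431) and Irf8 by 0.50 down (adjusted p = 0.000944). KCl against NaCl called 1 up and 3 down, with Usf1 at 0.75 (adjusted p = 0.00632), Jak2 at −0.41 (adjusted p = 0.0100) and Jak1 at −0.56 (adjusted p = 0.0414).

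Most listed negative regulators of Ciita and genes of the interleukin-10 route rose in conditioned medium, and most fell with KCl. In conditioned medium against control 7 of 8 rose and 1 fell (27.2% and 26.4% of all genes, median 1.24). Socs3, a feedback inhibitor of cytokine receptors, averaged 523 ± 5.84 CPM in conditioned medium and 6.52 ± 1.48 CPM in control libraries (SD, n = 3 each; log2 fold change 6.31, adjusted p = 1.52e-12). Socs1, which blocks JAK kinases, rose by 4.10 (adjusted p = 9.57e-11), Prdm1, a repressor of Ciita in plasma cells, by 1.64 (adjusted p = 1.51e-09) and Il10 by 2.25 (adjusted p = 2.5e-07). With KCl against conditioned medium alone 6 of 8 fell and 1, Stat3, rose (27.4% and 26.6% of all genes, median −0.51). Il10 averaged 3.30 ± 1.22 CPM with KCl and 22.4 ± 1.60 CPM in conditioned medium (SD, n = 3 each; −2.77, adjusted p = 2.2e-07). Socs3 fell by 2.13 (adjusted p = 3.27e-08), Socs1 by 1.22 (adjusted p = 5.77e-06) and the receptor gene Il10rb by 0.54 (adjusted p = 2.68e-05). With NaCl 4 of 8 fell and none rose (median −0.38), among them Il10 (−2.49, adjusted p = 4.93e-06) and Socs3 (−1.21, adjusted p = 3.79e-05). KCl against NaCl called 2 down (3 down and none up with total-count scaling), Socs3 (−0.92, adjusted p = 0.00100) and Prdm1 (−0.35, adjusted p = 0.0125), and 1 up, Stat3, the factor below the interleukin-10 receptor (0.39, adjusted p = 0.0162).

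**Figure D4:**
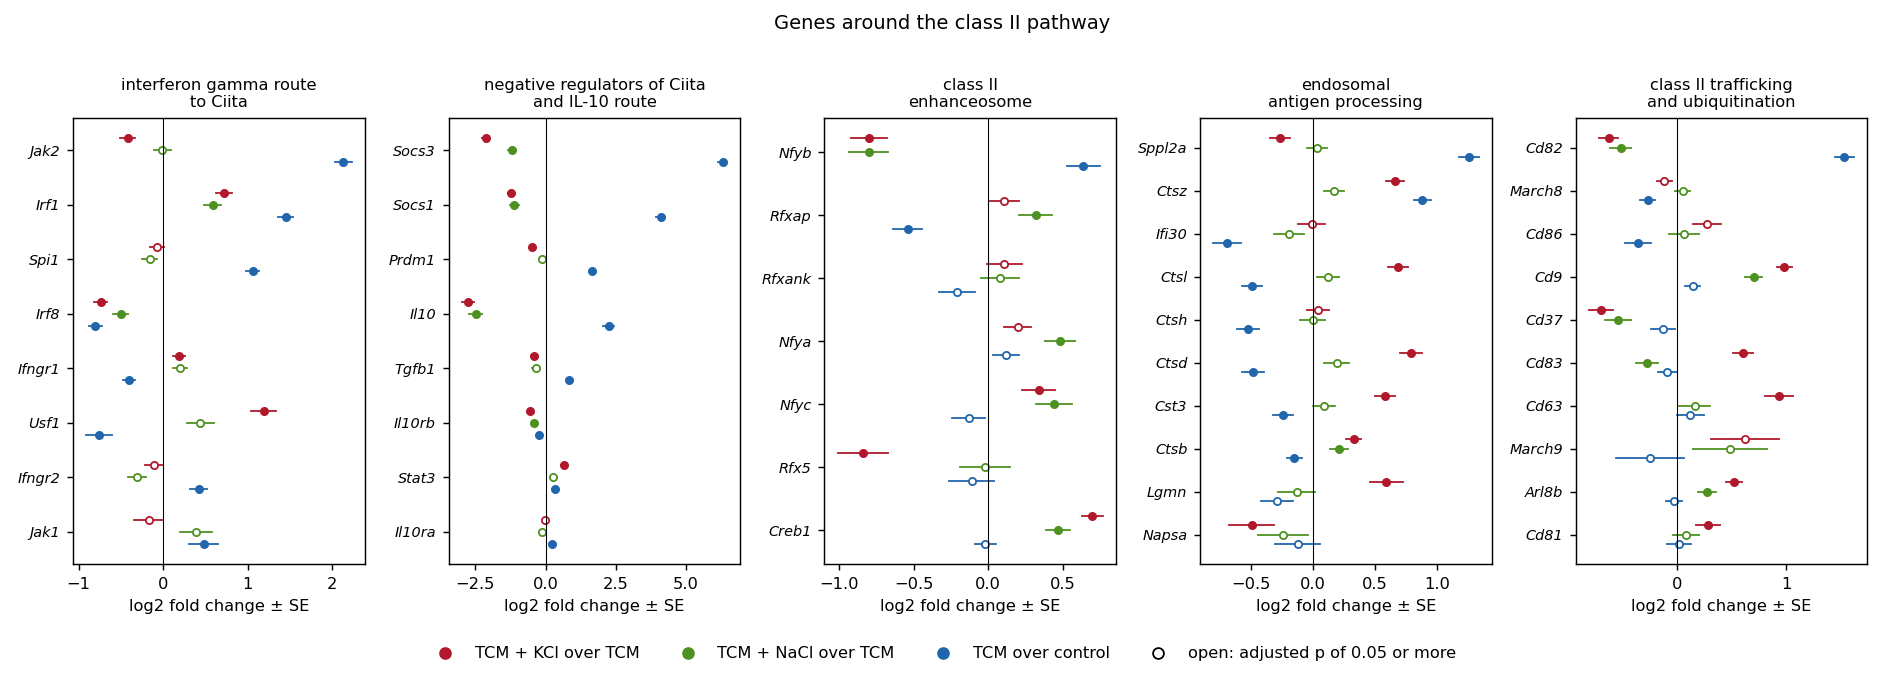
Log2 fold change ± SE (x axes, which differ between panels) of listed genes (rows) in 3 comparisons, coloured as in the legend with TCM for conditioned medium, and open where adjusted p was 0.05 or more. Socs3 and Il10 rose in conditioned medium over control (6.31 and 2.25) and fell with KCl (−2.13 and −2.77) and NaCl (−1.21 and −2.49), and cathepsin genes lie right of 0 with KCl.

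The factors that CIITA docks on changed in both directions. In conditioned medium and with KCl the counts called say little, since 53.5% and 53.9% of all genes were called there. With NaCl 28.7% of all genes were called. Of the 7 genes for RFX, NF-Y and CREB, 1 rose and 1 fell in conditioned medium against control: Nfyb by 0.64 up (adjusted p = 0.000294) and Rfxap by 0.54 down (adjusted p = 0.000341). With total-count scaling 1 rose and 5 fell there. With KCl against conditioned medium alone 2 rose and 2 fell (median 0.11, and −0.10 with total-count scaling). Rfx5, the DNA-binding subunit of RFX at the X box, fell by 0.84 (adjusted p = 0.000977) and Nfyb, of the Y box factor, by 0.80 (adjusted p = 7.34e-05), while Creb1 rose by 0.70 (adjusted p = 4.8e-06) and Nfyc by 0.34 (adjusted p = 0.0227). With NaCl 4 rose and 1 fell (median 0.32), and Nfyb was again the one that fell (−0.80, adjusted p = 0.000462). Rfx5 was lower with KCl than with NaCl, at 4.26 ± 0.489 CPM with KCl (n = 3) and 7.40 ± 1.19 CPM with NaCl (SD, n = 2; −0.82, adjusted p = 0.00668).

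Endosomal proteases and their helpers fell more often than they rose in conditioned medium, and rose more often with KCl. Of all genes, 26.4% fell and 27.2% rose in conditioned medium, and 26.6% rose and 27.4% fell with KCl. With NaCl 13.7% of all genes rose and 14.9% fell. In conditioned medium against control 2 of the 10 tested rose and 6 fell (median −0.27): Sppl2a, which cuts the last membrane stub of the invariant chain, rose by 1.25 (adjusted p = 1.07e-08), and Ifi30, a thiol reductase for antigens, fell by 0.69 (adjusted p = 0.000123). Ctsz rose by 0.88 (adjusted p = 2.18e-07) and Ctsl fell by 0.49 (adjusted p = 0.000198). With KCl against conditioned medium alone 6 rose and 2 fell (median 0.45, against −0.01 over all genes). Ctsd averaged 9134 ± 1301 CPM with KCl and 5226 ± 170 CPM in conditioned medium (SD, n = 3 each; 0.79, adjusted p = 8.04e-06). Ctsl rose by 0.68 (adjusted p = 1.47e-05), Ctsz by 0.66 (adjusted p = 6.18e-06) and Cst3, for the cathepsin inhibitor cystatin C, by 0.58 (adjusted p = 3.77e-05). With NaCl 1 rose and none fell, Ctsb by 0.21 (adjusted p = 0.0321), a call lost with total-count scaling, where none of the 10 passed. KCl against NaCl called 5 up and 1 down, with Ctsl at 0.57 (adjusted p = 0.00175) and Ctsd at 0.61 (adjusted p = 0.00179).

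Of the 10 genes for class II trafficking and ubiquitination, 1 rose and 2 fell in conditioned medium against control, and Cd82, a tetraspanin that associates with H2-DM, was the one that rose (1.53, adjusted p = 5.12e-09). With total-count scaling 1 rose and 7 fell there. With TMM scaling 53.5% of all genes were called in that comparison. The share was 53.9% with KCl, 28.7% with NaCl and 31.6% for KCl against NaCl. With KCl against conditioned medium alone 5 rose and 2 fell (median 0.40). Cd9 and Cd63, tetraspanins of class II compartments, rose by 0.98 (adjusted p = 1.58e-07) and 0.93 (adjusted p = 4.32e-05), and Cd82 fell by 0.63 (adjusted p = 4.46e-05). Arl8b, a GTPase that moves lysosomes, rose by 0.52 (adjusted p = 4.53e-05). With NaCl 2 rose and 3 fell, among them Cd9 up by 0.70 (adjusted p = 2.3e-05) and Cd82 down by 0.52 (adjusted p = 0.00132). KCl against NaCl called 4 up and none down (2 up and 1 down with total-count scaling), with Cd83 at 0.88 (adjusted p = 0.000249).

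In isotonic KCl, loss of Kcnj2 called none of the 9 members tested. H2-DMb2 did not pass the low-count filter of that fit, with 4, 6 and 6 counts in knockout and 10, 3 and 11 counts in floxed libraries. Over all genes 2 of 12782 were called, 0.0156%, and DESeq2 called 177 genes and no member. At an unadjusted p under 0.05 edgeR had 1 member, Ctss, with 1.32-fold more RNA in knockout (log2 fold change 0.40, SE 0.12, unadjusted p = 0.0127, adjusted p = 0.508). All 3 knockout libraries lay above the 3 floxed ones, as for 11.2% of all genes in either direction. Ctss passed in a fit of all 17 libraries (adjusted p = 0.00776) and with the length slope as a covariate (0.38, adjusted p = 4.23e-06). Those settings called 272 and 891 genes in all, so a pass there is not particular to a member. March1 had 0.20 (95% interval −0.11 to 0.51, adjusted p = 1) and, with the length slope in the fit, 0.25 (adjusted p = 0.0275). Ciita had 0.43 (−0.31 to 1.16, adjusted p = 1). The chains had fold changes of 0.02 for H2-Aa (−0.23 to 0.27), 0.02 for H2-Ab1 (−0.34 to 0.38), −0.09 for H2-Eb1 (−0.38 to 0.20) and 0.07 for Cd74 (−0.26 to 0.41).

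The per-library values of these groups overlapped for the chains. H2-Ab1 had 751, 665 and 620 CPM in knockout and 563, 712 and 733 CPM in floxed libraries, and H2-Aa 577, 564 and 551 CPM in knockout and 555, 542 and 575 CPM in floxed libraries. H2-Eb1 had 318, 269.7 and 299.6 CPM in knockout and 328, 289 and 334 CPM in floxed libraries. Cd74 had 2145, 1838 and 1996 CPM in knockout and 1985, 1640.0 and 2067 CPM in floxed libraries. H2-DMa had 27.3, 24.0 and 28.5 CPM in knockout and 21.4, 19.9 and 24.7 CPM in floxed libraries, and H2-DMb1 98.3, 90.1 and 77.5 CPM in knockout and 57.01, 101 and 82.4 CPM in floxed libraries. No gene of the 6 pathway lists was called in this comparison by edgeR. The B cell marker sum and Lyz2, given above, also differed between these groups without overlap.

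**Figure D5:**
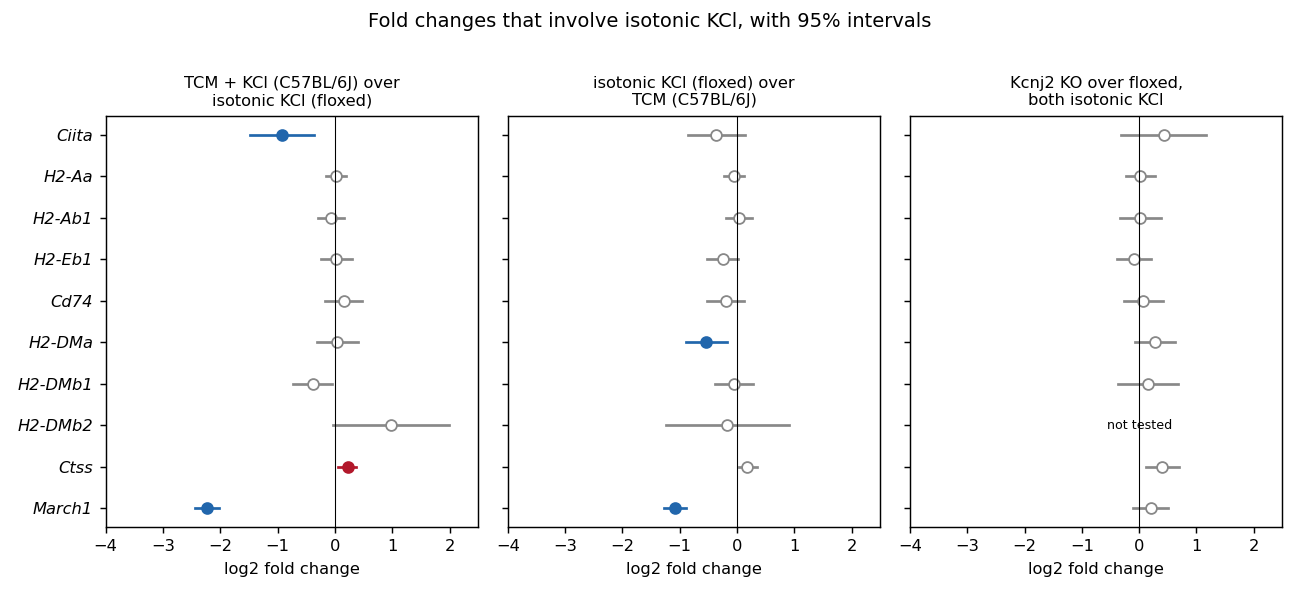
Log2 fold change (x axes) of each gene (rows) in the comparisons that involve isotonic KCl, with TCM for conditioned medium, KO for the Kcnj2 knockout, lines for 95% intervals, and filled points where adjusted p was under 0.05 (red higher, blue lower). March1 was lower with KCl than with isotonic KCl (−2.23) and lower with isotonic KCl than in conditioned medium alone (−1.08), and no gene is filled for the knockout.

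Floxed cells in isotonic KCl set March1 between the other groups. In 2 further comparisons strain and treatment differ together and cannot be told apart, and both share libraries with those above. Whether time and KCl concentration were matched in them is not known. C57BL/6J cells with KCl against floxed cells with isotonic KCl moved 3 members (27.8% of all 14676 genes), 1 up (12.3%) and 2 down (15.4%). March1 was 4.68-fold lower with KCl (log2 fold change −2.23, SE 0.10, adjusted p = 9.59e-10), and Ciita fell by 0.93 (SE 0.26, adjusted p = 0.0157), a call lost without KCl library 2 (adjusted p = 0.0647) or floxed library 1 (0.0897) and with only the libraries compared (0.137). Ctss rose by 0.22 (SE 0.07, adjusted p = 0.0371), lost without KCl library 1 (adjusted p = 0.0786), floxed library 1 (0.0919) or floxed library 3 (0.0604), and with total-count scaling (0.17, 0.0649), no filter (0.325) or only the libraries compared (0.367). H2-DMb1 had −0.39 and was called with total-count scaling (−0.43, adjusted p = 0.0226), no filter (0.0279) and the length slope in the fit (−0.34). Cd74 had 0.15 (adjusted p = 0.511), and 0.37 without KCl library 2 (adjusted p = 0.0107).

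Floxed cells with isotonic KCl against C57BL/6J cells in conditioned medium alone moved 2 members (15.3% of all genes), none up (8.2%) and 2 down (7.09%). March1 was 2.12-fold lower (−1.08, SE 0.09, adjusted p = 2.38e-06), and the call held without any single library (−1.17 to −1.01). H2-DMa fell by 0.54 (SE 0.17, adjusted p = 0.0426), a call lost without any one of 5 of the 6 libraries (adjusted p up to 0.148) and with only the libraries compared (0.0883). H2-DMb1 had −0.05, and −0.37 with the length slope in the fit (adjusted p = 0.000108). Il10 averaged 7.72 ± 3.42 CPM in floxed cells with isotonic KCl and 22.4 ± 1.60 CPM in conditioned medium (SD, n = 3 each; −1.55, adjusted p = 0.00202), and Socs3 fell by 0.71 (adjusted p = 0.00403). Irf1 rose by 0.99 (adjusted p = 2.38e-06), Cd83 by 1.38 (adjusted p = 5.45e-06) and Ctsz by 0.68 (adjusted p = 0.00139). With KCl against isotonic KCl, Socs1 fell by 1.24 (adjusted p = 0.000283) and Cd83 by 0.77 (adjusted p = 0.000276), and Creb1 rose by 0.64 (adjusted p = 1.77e-05).

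Among named genes with a mean of at least 10 CPM, the closest in pattern to each of 4 members was found by Pearson's r of log2 levels over the 17 libraries, which share groups, depth and length slope, so r is a description. For March1 these were Tbc1d13 (r = 0.979), Nab2 (0.977), Fam98b (0.977), Zdhhc21 (0.975) and Spata13 (0.972). For Ciita they were Oxct1 (0.971), Fblim1 (0.970), Zfp36l2 (0.969), Fes (0.969) and Tpcn2 (0.968). For Ctss they were the protease gene Ctsb (0.938), Psap (0.911), Cst3 (0.893), the immunoglobulin gene Igkc (0.892) and Lamp1 (0.884), of which Ctsb, Psap, Cst3 and Lamp1 encode lysosomal or secreted proteins. For H2-Ab1 they were Uqcrc1 (0.948), Psmc3 (0.947), Gpatch4 (0.931), Prelid1 (0.921) and Gnb2 (0.921), and no class II gene was among them. H2-Ab1 itself had r = −0.73 with the length slope of the libraries, and these genes −0.83 to −0.69. Ctss had −0.65, and the genes closest to it −0.86 to −0.55. How much of this likeness follows the length slope was not tested.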

How the data were processed

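Total RNA of 17 macrophage libraries was sequenced, and the authors' deposited table gives raw counts, with Ensembl gene identifiers as rows and libraries as columns. Its genome build, aligner, counter and use of strand are not stated in the labels, and DESeq2 1.30.1 is named in the submitters' processing notes without a role. Groups came from the strain and treatment labels. Symbols, exon lengths and overlaps came from GENCODE M21 (GRCm38), promoters from RefSeq. Counts were tested with edgeR 4.0.16 in R 4.3.3 (quasi-likelihood F test, robust, TMM, default filter by group): the 11 C57BL/6J libraries together, the 6 isotonic ones alone, and all 17 for comparisons across strains. The procedure was tested on simulated data. A gene at 0 counts is below 3 counts in that library (counting error only). Members and lists were chosen with earlier results of these data known. The naming rule takes all members and, per list and comparison, up to 4 called genes by smallest p, plus the 5 genes most like each of 4 members. Some genes it names are not reported here. No replicates agreed within sampling noise. Alternatives were DESeq2 1.42.0, RLE factors, total counts, other filters, a replicate block, a length covariate, other sample sets and leaving out libraries.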

Additional observations from a re-analysis of the deposited data

How the results depend on the processing

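March1 kept its direction under every alternative in all 7 comparisons and its call in the 6 where it passed, and Ciita and Ctss never changed direction. Of the member values that changed sign, H2-DMb1 in KCl over NaCl (0.32, and −0.07 with the length slope as a covariate) was the only one that had been called. With total counts and no factors the fold changes of conditioned medium over control were −0.12 for H2-Aa, −0.17 for H2-Eb1 and −0.14 for Cd74, those of KCl over NaCl −0.13 for H2-Aa and −0.12 for Cd74, of knockout over floxed 0 for H2-Aa, of isotonic KCl over conditioned medium −0.15 for H2-Ab1, and of KCl over isotonic KCl −0.02 for H2-Aa and −0.02 for H2-Eb1. The share of calls that were higher was then 24.9% for conditioned medium over control, against 50.8% with TMM, 32.6% against 49.3% for KCl and 37.0% against 48.0% for NaCl over conditioned medium, 30.1% against 48.6% for KCl over NaCl, 26.1% against 53.6% for isotonic KCl over conditioned medium, and 33.3% against 50% for knockout over floxed (3 and 2 calls). With no filter, 12 genes were called for knockout over floxed and 1 member for KCl over NaCl, with 0 for H2-Aa and −0.01 for Cd74 there, and −0.02 for H2-Aa and −0.01 for H2-Eb1 for KCl over isotonic KCl. With the length slope as a covariate, KCl over NaCl called 312 genes and 1 member, March1 (0.16 for H2-Eb1, 0.38 for H2-DMa, −0.07 for H2-DMb1), NaCl over conditioned medium 5 members (0.08 for H2-DMb2), knockout over floxed 891 genes and 2 members (−0.02 for H2-Ab1) and KCl over isotonic KCl 6851 genes. There H2-Aa was 0.03 and Cd74 0.20 for KCl over conditioned medium, and H2-Ab1 −0.11 for isotonic KCl over conditioned medium. A fit of only the libraries compared called 9259 genes and all 10 members for conditioned medium over control (7773 and 7 in the fit of 11 libraries), 8 genes and 1 member, March1, for KCl over NaCl, 6245 and 7 for NaCl over conditioned medium, 411 and 1 for isotonic KCl over conditioned medium, and 1218 and 1 for KCl over isotonic KCl. A fit of all 17 libraries called 1299 genes and 1 member for KCl over NaCl, and 272 and 1 for knockout over floxed. DESeq2 called 177 genes for the knockout. The cause of these differences was not tested.

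Leaving out 1 library gave 2224 to 3465 genes for NaCl over conditioned medium (2224 without NaCl library 2, 2602 without NaCl library 1), and 960 to 6989 genes and 1 to 5 members for KCl over NaCl (960 without NaCl library 2, 2103 without NaCl library 1, 3018 without KCl library 1, 6989 without KCl library 3). A lone NaCl library is then assumed to vary like the other groups. It gave 0 to 14 genes for knockout over floxed (14 without floxed library 1, 0 without floxed library 3 or any knockout library) and 1081 to 5589 genes and 1 to 4 members for isotonic KCl over conditioned medium (5589 without floxed library 1, and 1081 to 1267 without any other library of the 6). Values that changed sign ran, for KCl over conditioned medium, from −0.10 to 0.07 for H2-Aa, −0.14 to 0.03 for H2-Ab1 and −0.19 to 0.16 for Cd74, and for NaCl over conditioned medium from −0.49 to 0.14 for H2-DMb2. For KCl over NaCl they ran from −0.05 to 0.12 for H2-Aa, −0.21 to 0.10 for H2-Eb1, −0.13 to 0.22 for Cd74 and −0.17 to 0.18 for H2-DMa. For knockout over floxed they ran from 0 to 0.06 for H2-Aa, −0.10 to 0.11 for H2-Ab1, −0.02 to 0.15 for Cd74 and −0.05 to 0.35 for H2-DMb1. For isotonic KCl over conditioned medium they ran from −0.03 to 0.14 for H2-Ab1, −0.24 to 0.14 for H2-DMb1 and −0.46 to 0.22 for H2-DMb2. For KCl over isotonic KCl they ran from −0.03 to 0.14 for H2-Aa, −0.18 to 0.02 for H2-Ab1, −0.08 to 0.22 for H2-Eb1 and −0.08 to 0.28 for H2-DMa. Without KCl library 2 and floxed library 2 together, an alternative chosen after seeing the data, H2-Ab1 was 0.04 there. Cd74 was then called higher with KCl (0.26, adjusted p = 0.0313).

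Whether replicate numbers pair the libraries is not settled. Residuals of 4 of 15 same-number pairs of C57BL/6J libraries correlated above 0.1 (at most 0.194), against 0 of 30 pairs with different numbers (at most 0.098). Of the isotonic pairs, 1 of 3 with the same number and 3 of 6 with different numbers did. With the replicate block the fit called 0 genes for knockout over floxed and gave −0.05 for Cd74 in KCl over NaCl. H2-Aa in conditioned medium over control (adjusted p = 0.0335), H2-Ab1 with NaCl (0.0391) and Ciita in KCl over NaCl (0.0365) passed with it. Depth limits H2-DMb2, at 3 to 23 counts outside control, and Ciita with KCl.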
